A study of Saccharomyces cerevisiae with 20 samples.

Results

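The strains described here carry a single amino acid substitution between residues 29 and 43 of histone H3, the base of the N-terminal tail up to where it leaves the nucleosome core. They were taken from the mutation names of the deposited barcode table, which lists 27 such strains among 422 named ones. Of these, 25 averaged 10 or more counts over the 20 libraries and were kept, against 347 of all named strains. The members cover all 15 residues, and a strain is 1 designed mutant with 1 pair of barcodes, so strains of the same residue share a site but not a barcode.

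All strains were grown together as 1 pooled culture of the yeast Saccharomyces cerevisiae. Each was derived from JDY86 and held the synthetic H3 and H4 genes, marked with URA3, as its only copies, since the other H3-H4 gene pair was replaced with NatMX4. The wild type of the library carried the same construct with unchanged histones. The pool was grown in YPD at 30°C, diluted into fresh YPD to an OD of 0.06 and shaken through stationary phase, and the cells of an aliquot were separated by density on Percoll into a quiescent (denser) and a non-quiescent fraction. Both fractions were sequenced on days 0, 1, 2, 3, 5, 7, 14, 24, 34 and 44, with 1 library for each fraction and day and no replicate culture. Only barcodes were counted, so the fraction labels could not be checked against markers, and a count gives a strain's share of the barcodes, not the number of living cells.

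In yeast, H3K36 is methylated by Set2 during transcription, and the methylated lysine is read by the Eaf3 subunit of the deacetylase Rpd3S, which keeps transcribed chromatin deacetylated. Prolines P30 and P38 flank this lysine and are targets of the proline isomerase Fpr4. From H39 onwards the chain passes between the gyres of nucleosomal DNA, where R40 reaches into the minor groove and Y41 and K42 lie close to the DNA backbone.

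Strains were told apart by their designed 20-base up and down barcodes, which mark the strain and are not the mutated codons. They are printed 5′ to 3′ for the strains on which the values below turn most, and no letter is in capitals because the whole barcode was the counted unit. The substitutions of K36 and K37 to alanine stood lowest of the members at day 44, R40K stood highest, H39Q had the largest gain after day 7, and K42A and K42Q had no count.
H3K36A up: aggcagatacgattagtacg
H3K36A down: aaatccacggtgacgcatgg
H3K37A up: atatctgttgaagcggcccg
H3K37A down: acctgtagtgtaatagctgg
H3R40K up: gcggtcgatacatttctaag
H3R40K down: tgcccgaagagtaaagttca
H3H39Q up: agaatgcgtctcaagctgcc
H3H39Q down: gatgcgtcaccatgctacag
H3K42A up: atagccttctaagagcggcg
H3K42A down: aagtacgagtcatggacctg
H3K42Q up: gcattaacgggaactagagc
H3K42Q down: gatcatttaccactctacgg

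Library totals ran from 126647 counts (quiescent day 24) to 337544 counts (quiescent day 34), and the members held 3.98% to 6.26% of the kept counts. The down barcode gave 12.4% of the counts of the quiescent day 24 library and 32.1% to 49.4% of the others. The day 5 libraries stood apart from their labels when set against day 3. Over the 347 kept strains, and after each strain's own mean was taken off, the library labelled quiescent at day 5 correlated with r = 0.77 with the non-quiescent library of day 3 and r = 0.15 with the quiescent one. The library labelled non-quiescent at day 5 correlated with r = 0.82 with the quiescent library of day 3 and r = -0.03 with its own fraction. Set against day 7 the picture was mixed: the non-quiescent library of day 7 correlated with r = 0.62 with the library labelled non-quiescent at day 5 and r = 0.37 with the one labelled quiescent, while for the quiescent library of day 7 the values were -0.28 with its own label and 0.32 with the other. These correlations are across strains that share libraries, and are given as a description. The fits below that use day 5 were therefore also obtained without it and with its fractions exchanged. The comparison of substitutions of the same residue was also run without day 5, but not with its fractions exchanged.

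At day 44 the quiescent shares of most members lay within 2-fold of the median strain. The measure was the log2 of a strain's quiescent count at day 44 over its count at day 0, less the same value for the median of the 347 kept strains. Its 95% interval is exact (Clopper-Pearson) and covers counting error only, and with 1 library a day it has no test. Of the 25 members 1 (4.0%) stood over 2-fold above the median strain, where 14.1% of all kept strains did, and 2 (8.0%) stood over 2-fold below, where 26.5% did. The members spanned -2.37 to 1.16 with a median of -0.29, and 10 lay above the median strain and 15 below. All other single substitutions had a median of 0.04 (272 strains) and reached from -8.53 to 2.68. On the N-terminal side the 18 substitutions of residues 19 to 28 had a median of 0.68, and on the core side the 13 kept substitutions of residues 44 to 62 had a median of -1.14, with 7 of them over 2-fold below. The wild type stood at 0.41, above 21 of the members and below 4. Of all kept strains, 232 lay below the wild type and 114 above it.

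The substitutions of K36, the site of Set2 methylation, all lay below the median strain at day 44, and the alanine strain lay lowest of all members. H3K36A had 180, 132, 183, 213, 74, 102, 70, 27, 49 and 29 counts in the quiescent libraries of days 0, 1, 2, 3, 5, 7, 14, 24, 34 and 44. In the non-quiescent libraries of the same days it had 132, 68, 120, 64, 157, 103, 119, 89, 92 and 101 counts. On the centred log2 scale its quiescent share stood at -0.57 at day 1, 0.11 at day 2 and 0.20 at day 3, and then at -0.71 at day 7, -1.49 at day 14, -2.11 at day 24, -2.52 at day 34 and -2.37 at day 44 (95% interval -2.99 to -1.80). Both barcodes gave a low ratio, -2.52 for the up and -1.93 for the down barcode. In the non-quiescent fraction H3K36A stood at -0.59 at day 7 and -0.94 at day 44, a change of share that was small beside the quiescent one.

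The other K36 strains stood higher than H3K36A in the quiescent fraction at day 44, and their courses are compared as pairs below. H3K36Q, a mimic of acetylated lysine, had 349, 270, 146, 132, 113, 274, 303, 127, 166 and 152 quiescent counts over the 10 days, and its ratio was -0.94 at day 44 (-1.22 to -0.66). H3K36R, which keeps the charge but cannot be methylated by Set2, had 372, 243, 147, 139, 268, 337, 358, 196, 376 and 253 quiescent counts, and its ratio was -0.29 at day 44 (-0.53 to -0.06). Both were low at days 2 and 3 and stood nearer to their starting share at day 7, H3K36Q at -0.24 and H3K36R at -0.03, where H3K36A stood at -0.71. In the non-quiescent fraction the order at day 44 was different, with H3K36Q lowest at -1.28 (-1.54 to -1.03), next to H3K36R (-1.23 to -0.77) and to H3K36A at -0.94 (-1.33 to -0.56), and the 3 counting intervals overlapped.

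At K37, the neighbour that can also be methylated, the order of the substitutions in the quiescent fraction was alanine lowest and arginine highest. H3K37A had 264, 189, 124, 122, 72, 132, 152, 74, 98 and 65 quiescent counts and stood at -1.76 at day 44 (-2.17 to -1.36), with the up barcode at -1.68 and the down barcode at -1.78. H3K37Q had 512, 511, 364, 330, 150, 360, 456, 315, 589 and 274 counts and stood at -0.64 (-0.86 to -0.42). H3K37R had 622, 635, 588, 674, 538, 514, 673, 455, 1130 and 540 counts and stood at 0.06 (-0.11 to 0.23). The intervals of the 3 strains did not overlap at day 44, and H3K37R was within 0.22 of its starting share in every quiescent library on the centred scale. In the non-quiescent fraction H3K37A was again lowest at -0.84 (-1.18 to -0.51), while H3K37Q at -0.24 (-0.44 to -0.03) and H3K37R at -0.31 (-0.47 to -0.15) had overlapping intervals.

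At R40, the arginine in the minor groove, the lysine strain stood highest of the members and the alanine strain was rare from the start. H3R40K had 163, 292, 207, 224, 215, 183, 339, 187, 556 and 304 quiescent counts, and its ratio at day 44 was 1.16 (0.88 to 1.45), with the up barcode at 1.36 and the down barcode at 1.11. Of the 347 kept strains, 36 stood higher. H3R40A had 68 quiescent counts at day 0 and 35 at day 44, a ratio of -0.70 (-1.33 to -0.09), and its barcodes differed, with the up barcode at -0.23 and the down barcode at -1.47. Against the wild type (0.41) in place of the median strain, H3R40K was no longer past 2-fold, and 9 members were over 2-fold below. The share of all strains over 2-fold below the wild type was not counted.

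The remaining members of the stretch that passes between the DNA gyres differed in sign. H3H39Q stood at 0.77 (0.47 to 1.08) and H3H39A at -0.52 (-0.77 to -0.28). H3Y41F, which lacks the hydroxyl group that JAK2 phosphorylates in human cells, stood at 0.46 (0.18 to 0.74), and H3P43A stood at 0.15 (-0.02 to 0.31). H3K42R stood at -0.94 (-1.27 to -0.61). The other K42 strains of the table, H3K42A and H3K42Q, had 0 counts in all 20 libraries, day 0 included, where 3 of the 3457088 counts would be the upper limit, so that at K42 only the arginine strain gives a course.

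Among the phosphorylatable residues of the tail itself, the serine and threonine strains stood near the median strain. The ratio was 0.22 (0.04 to 0.40) for H3S31D and -0.31 (-0.55 to -0.08) for H3S31A. It was 0.02 (-0.18 to 0.22) for H3T32A and -0.17 (-0.44 to 0.11) for H3T32D, whose intervals overlap. Of the prolines, H3P38V stood at 0.78 (0.54 to 1.02), H3P38A at -0.21 (-0.43 to 0.01), H3P30A at -0.41 (-0.65 to -0.18) and H3P30V at -0.84 (-1.31 to -0.39). At the 2 Fpr4 targets the valine strains thus had opposite signs in the day 44 ratio, which spans growth and stationary phase. In the step from day 0 to days 1 to 3 both had positive values. H3P38V was called at 0.75 ± 0.15, and H3P30V at 0.52 ± 0.23 was not (edgeR adjusted p = 0.0811). Among the small residues, H3A29S stood at 0.04 (-0.18 to 0.27), H3V35A at 0.04 (-0.25 to 0.34), H3G34A at -0.65 (-0.93 to -0.37) and H3G33A at -0.80 (-1.09 to -0.51). G34 lies close to K36, and its substitution occurs in human tumours. For 20 of the 25 members the up and the down barcode, each centred on its own median strain, gave the same side.

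The step from day 0 to days 1 to 3, which spans growth in fresh medium, changed the shares of 14 of the 25 members. It was tested over the 8 libraries of days 0 to 3 in both fractions with edgeR's quasi-likelihood test, with fraction as a covariate and Benjamini-Hochberg adjustment over all 347 strains. Of the 25 members 8 rose, beside 25.4% of all strains, and 6 (24.0%) fell, beside 28.8%, so the shares were near those of the library. In residues 36 to 40, with 12 members kept, 6 fell and 2 rose (H3P38V and H3R40K). Of the 10 members of residues 29 to 35, 5 rose and none fell. Whether position goes with direction was not tested, since the split was seen in the values.

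Of the strains that fell, H3K36Q changed most, with a log2 step of -1.59 ± 0.33 (SE, edgeR adjusted p = 0.00456), and H3K36R was at -0.95 ± 0.25 (adjusted p = 0.0132). At K37 the step was -1.15 ± 0.24 for H3K37A (adjusted p = 0.00488) and -0.71 ± 0.22 for H3K37Q (adjusted p = 0.0219). Further along the chain it was -1.03 ± 0.36 for H3H39A (adjusted p = 0.0364) and -1.53 ± 0.37 for H3R40A (adjusted p = 0.00875). The remaining strains of the lysines did not pass, with H3K36A at -0.47 ± 0.32 (adjusted p = 0.241), H3K37R at -0.04 ± 0.12 and H3K42R at -0.06 ± 0.17, nor did H3H39Q at -0.84 ± 0.47 (adjusted p = 0.164). By fraction the step was described without a fit, as the mean median-centred log2 count of days 1 to 3 less that of day 0. On this measure the 6 strains that fell were negative in both fractions, and 5 of the 6 were lower in the non-quiescent fraction. H3K36Q was at -1.02 in the quiescent and -2.23 in the non-quiescent libraries, and H3H39A at -0.48 and -1.71. The edgeR steps within the fractions were -0.94 and -2.11 for H3K36Q and -0.43 and -1.51 for H3H39A. H3R40A had 45, 9, 16 and 14 counts in the non-quiescent libraries of days 0 to 3 and 68, 48, 27 and 21 in the quiescent ones, so its fall rests on small counts.

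The strains that rose were led by H3S31D, the phosphate mimic of S31, at 0.98 ± 0.19 (edgeR adjusted p = 0.00396). It had 402, 1268, 1030 and 990 counts in the non-quiescent libraries of days 0 to 3 and 534, 825, 867 and 960 in the quiescent ones, so that in both fractions each of days 1 to 3 was above day 0. It was followed by H3P38V at 0.75 ± 0.15 (adjusted p = 0.00396), H3V35A at 0.69 ± 0.16 (adjusted p = 0.00669), H3R40K at 0.61 ± 0.18 (adjusted p = 0.0218) and H3Y41F at 0.55 ± 0.17 (adjusted p = 0.0219). H3S31A (0.42), H3P30A (0.36) and H3T32A (0.36) rose less, and the wild type was at 0.29 ± 0.14 (adjusted p = 0.109). Of the phosphorylatable residues S31, T32 and Y41, 4 of 5 strains rose, beside 25.4% of all strains, and none fell. Among these 4 only H3S31D was also called with the wild type as the reference. With the wild type as the reference 3 of the 8 rises were called (H3S31D, H3P38V and H3V35A) and all 6 falls. Day 0 has only the 2 fractions of 1 aliquot, so its own spread between aliquots is not in the test. Within the fractions the test had 3 libraries against 1, the lone library being taken to vary like the others: in the non-quiescent libraries alone 8 members were called, and in the quiescent libraries alone edgeR called none, although 6 had an unadjusted p under 0.05. Without day 2, or without day 3, 7 members were called. The shares of all strains called with the wild type as the reference, within each fraction or without a day were not counted. These counts of members therefore cannot be set against the library.

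Within stationary phase, few members were called for a change of quiescent share in the main fit, which left 3 residual degrees of freedom. A line on day was fitted with edgeR, as above, to quiescent days 7, 14, 24, 34 and 44, and its slope is given as log2 per 10 days ± SE. Of the 25 members 1 rose (4.0%, beside 17.9% of all strains) and 3 fell (12.0%, beside 22.8%). H3K36A fell by 0.45 ± 0.13 (adjusted p = 0.0260), H3P30V fell by 0.36 ± 0.12 (adjusted p = 0.0390) and H3G34A fell by 0.26 ± 0.06 (adjusted p = 0.0115). H3R40K rose by 0.21 ± 0.07 (adjusted p = 0.0424). None of these 4 strains was called without day 7 or without day 34, each of which leaves 4 libraries. The rise of H3R40K held under 3 of 12 alternatives, and was lost among others with library totals, with the wild type as the reference and with DESeq2.

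H3G34A had 363, 353, 194, 337 and 162 quiescent counts on days 7, 14, 24, 34 and 44, and 286, 377, 324, 340 and 366 non-quiescent ones. H3P30V had 154, 143, 47, 89 and 60 quiescent counts and 151, 195, 121, 168 and 164 non-quiescent ones. On the centred log2 scale of day 44 over day 7, the non-quiescent ratio was 0.11 (-0.11 to 0.34) for H3G34A and -0.12 (-0.45 to 0.21) for H3P30V, beside -0.94 and -1.13 in the quiescent fraction. Of the members that missed the threshold, the lowest slopes were those of H3K37A (-0.29 ± 0.11, adjusted p = 0.0649), H3K36Q (-0.26 ± 0.11, adjusted p = 0.0920), H3K42R (-0.17 ± 0.08, adjusted p = 0.128), H3G33A (-0.15 ± 0.07, adjusted p = 0.105) and H3P30A (-0.15 ± 0.06, adjusted p = 0.0578).

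The other members had slopes close to 0. They were -0.09 for H3S31A, H3T32D and H3V35A, -0.08 for H3K36R, -0.07 for H3T32A, -0.05 for H3K37Q, -0.04 for H3S31D and -0.01 for H3H39A. H3P38A was at 0.00, H3P38V at 0.01, H3Y41F at 0.02, H3P43A at 0.05, H3K37R and H3A29S at 0.09 and H3R40A at 0.16 ± 0.15. The wild type was at 0.10 ± 0.07 (adjusted p = 0.254).

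H3H39Q had the largest value of the slope, 0.45 ± 0.18, but did not pass (adjusted p = 0.0827). Its course was singled out after its values were seen. It had 154, 197, 65, 49, 43, 53, 186, 211, 374 and 219 quiescent counts over the 10 days and 88, 65, 43, 35, 26, 54, 85, 67, 55 and 118 non-quiescent ones. Its quiescent share was low from day 2 to day 7, down to -1.69 on the centred log2 scale at day 3, and stood above its start from day 14, at 1.08 at day 24 and 0.77 at day 44. Measured from day 7 in place of day 0, it stood at 2.28 (1.84 to 2.74) at day 44, with 6 of the 347 strains higher, and the up (1.99) and the down barcode (2.63) gave the same side. H3H39A stood at -0.90 at day 3, at -1.26 in the library labelled quiescent at day 5 and -0.91 in the one labelled non-quiescent, and at -0.52 at day 44.

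Over the whole course of 10 quiescent libraries the slope on log2(day + 1) was called for 7 members. With edgeR, 1 rose (4.0%, beside 21.6% of all strains) and 6 fell (24.0%, beside 27.1%). The largest fall was that of H3K36A, by 0.53 ± 0.10 per doubling of day + 1 (adjusted p = 0.00150), which was called under all 19 alternatives. H3P30V fell by 0.29 ± 0.09 (adjusted p = 0.0215), a call lost without day 24, without day 34 or without day 44. H3K37A fell by 0.26 ± 0.07 (adjusted p = 0.0116), a call lost only without day 0 (-0.18, edgeR adjusted p = 0.087). H3K42R fell by 0.15 ± 0.05, and H3P30A and H3S31A fell by 0.11 each, calls that were lost under 5, 8 and 9 of the 19 alternatives. H3R40K rose by 0.16 ± 0.05 (adjusted p = 0.0135), and was not called with library totals or with the wild type as the reference. As many members, 1 and 6, were called without day 5 and with its fractions exchanged, while 3 members were called without day 24 or without day 34 and 2 without day 44.

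In the non-quiescent fraction no member was called over the whole course, where 6.63% of all strains were, nor within stationary phase, where the background was 0.00%. In edgeR 1 member had an unadjusted p under 0.05 in each of the 2 fits, and DESeq2 called none in either. Without day 0, 3 members rose over the remaining non-quiescent course, H3K36Q, H3K37A and H3K37Q, each of which fell in the step from day 0 to days 1 to 3. The share of all strains called in that fit was not counted, so these 3 cannot be set against the library.

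The whole-course slopes of the fractions were then compared with each other, with day as a block. Relative to the non-quiescent slope, the quiescent slope was lower for 6 members (24.0%, beside 17.6% of all strains) and higher for none (beside 15.3%). The difference was -0.45 ± 0.13 for H3K36A (edgeR adjusted p = 0.0253), -0.30 ± 0.09 for H3K37A (adjusted p = 0.0341), -0.27 ± 0.09 for H3P30V (adjusted p = 0.0360), -0.18 ± 0.06 for H3G34A (adjusted p = 0.0355), -0.15 ± 0.04 for H3S31A (adjusted p = 0.0257) and -0.14 ± 0.04 for H3P30A (adjusted p = 0.0274). Of these, 5 are alanine strains, as are 12 of the 25 members, and 4 lie in residues 29 to 35, as do 10 of the 25. No member was called without day 24, without day 34 or without day 44, and 1 was without day 2.

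Averaged over the days, no member passed the test between the fractions, nor did any strain (0.00%), although 5 members had an unadjusted p under 0.05 in edgeR. The largest difference was that of H3H39Q, whose quiescent share was higher by 1.01 ± 0.23 on the log2 scale (adjusted p = 0.0734), followed by H3R40A at 0.77 ± 0.22 (adjusted p = 0.0783). DESeq2 called both, with adjusted p of 0.000784 and 0.0140. The edgeR calls changed with day 5. Without it H3H39Q (1.05, edgeR adjusted p = 0.0207) and H3V35A (-0.48, adjusted p = 0.0154) were called. With its fractions exchanged H3H39Q (0.89), H3H39A, H3V35A and H3S31D were. The shares of all strains called with DESeq2 and under these day 5 settings were not counted. These calls therefore cannot be set against the library.

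Different substitutions of a residue were compared within libraries, which needs no scaling between them. The 25 members form 12 such pairs over 8 residues. For each pair the slope of the log2 ratio of their counts on log2(day + 1) was tested by a two-sided permutation of the days with 100000 resamples, adjusted over the 121 pairs of H3 and H4 and both fractions. The permutation takes the days as exchangeable, although they are serial samples of a single culture. Over the kept strains, neighbouring quiescent libraries correlated from r = -0.28 (day 7 with day 5) to r = 0.95 (day 44 with day 34). A slow drift can therefore give a small p. In the quiescent fraction 3 of 12 pairs passed (25.0%, beside 24.0% of all pairs), and in the non-quiescent fraction none did (beside 10.7%). All 3 set an alanine strain against another strain of a lysine. Most of the 12 pairs hold an alanine strain, however, and only K36 and K37 form several pairs. The calls at K37 share H3K37A.

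H3K36A lost ground to H3K36R at -0.57 ± 0.16 (SE) per doubling of day + 1 (permutation adjusted p = 0.0467), and their log2 count ratio was -1.05 at day 0, highest at 0.61 at day 3 and lowest at -3.10 at day 44. H3K37A lost ground to H3K37Q at -0.22 ± 0.05 (permutation adjusted p = 0.0282) and to H3K37R at -0.29 ± 0.08 (permutation adjusted p = 0.0438), and it was the rarer strain in all 10 libraries. Among the pairs that missed the threshold, H3H39A over H3H39Q had a slope of -0.30 ± 0.13 (permutation adjusted p = 0.150), H3K36A over H3K36Q of -0.39 ± 0.15 (0.102), and H3P30A over H3P30V of 0.17 ± 0.05 (0.0652). Whether the pair slopes differ between the fractions was not tested. None of the 3 calls stood without day 24, without day 34 or without day 44. H3K36A over H3K36R was lost under 10 of 14 alternatives, among them the down barcode alone, a pseudocount of 5 and the removal of day 5. H3K37A over H3K37R was also lost under 10 of 14, the down barcode alone among them, and H3K37A over H3K37Q under 6, the up barcode alone among them.

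Short deletions over the same residues gave a neighbouring view. The deletion of residues 29 to 32 stood at 1.22 (0.94 to 1.51) at day 44, and that of residues 33 to 36, which takes out K36, stood at -1.43 (-1.82 to -1.05). Its step to days 1 to 3 was -1.44 (edgeR adjusted p = 0.0104) and its stationary slope -0.48 per 10 days (adjusted p = 0.0309). The deletion of both stretches, residues 29 to 36, stood at -0.19 (-0.42 to 0.04). Of the longer deletions that also take out K36, that of residues 25 to 36 stood at 0.12 (-0.23 to 0.47), with a stationary slope of 0.16 (adjusted p = 0.427), and that of residues 21 to 36 at -4.26 (-4.91 to -3.67). The deletions shifted by a residue stood at 0.51 (0.35 to 0.68) for residues 28 to 31 and -0.64 (-1.44 to 0.12) for residues 32 to 35. Over all 11 kept deletions that overlap residues 29 to 43 the range was -4.92 to 1.22, with 5 above the median strain and 6 below. Within stationary phase 2 of the 11 rose, beside 17.9% of all strains, and 1 fell, beside 22.8%. The rises were those of residues 29 to 32 (0.19 per 10 days, edgeR adjusted p = 0.0360) and 21 to 32 (0.24, adjusted p = 0.0216). In the step to days 1 to 3, 6 of these 11 fell, beside 28.8% of all strains, and 0 rose. The deletion of residues 29 to 36 was at -1.29 (edgeR adjusted p = 0.0067). That of residues 21 to 32, which keeps K36, was at -1.06 (adjusted p = 0.0088). That of residues 25 to 36, which takes out K36, did not pass (-0.94, adjusted p = 0.0818).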

How the data were processed

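Barcodes of 20 libraries were analysed, 1 for each density fraction and day. The authors counted up and down barcodes in single-end reads with get_seqs_from_fastq and match_barcodes_to_strain, and the deposited values are raw read counts. Reads come from PCR without molecular identifiers, so intervals cover counting error only. A second deposited table of the authors' own log2 ratios to the start was not used. No genome build applies. Residue numbers leave out the initiator methionine.

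Up and down counts were summed and strains with a mean of at least 10 kept. The day 44 ratio was centred on the median strain (shift -0.26), with 0.5 added where a count was 0. In the pair ratios 0.5 was added to both counts. Fits were made on all 347 kept strains with edgeR 4.0.16 in R 4.3.3 (TMM, quasi-likelihood F-test, Benjamini-Hochberg adjusted p under 0.05), and the residual degrees of freedom were 5, 8, 3, 8, 3, 9 and 8 for, in turn, the step to days 1 to 3, the quiescent whole and stationary slopes, the non-quiescent whole and stationary slopes, the fraction term and the interaction. Scripts were tested on simulated counts. The days are serial samples of 1 culture that the tests take as independent, and no p-value covers how cultures vary.

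Alternatives were library totals, the wild type as the reference, DESeq2 1.42.0, no filter, a mean of at least 50, each barcode alone, each day left out, day on its own scale, the day 5 fractions exchanged, no day block and, for pairs, a pseudocount of 5. The fits within each fraction of the early step and the mean of both barcode ratios were chosen after seeing the data. Python 3.11.15, numpy 2.4.6, pandas 2.3.3 and scipy 1.17.1 were used. All kept members were to be named, with courses for those past 2-fold at day 44 and for K36 and K37; the other courses printed were picked after their values were seen. The members and lists were chosen with earlier results of these data known.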

Additional observations from a re-analysis of the deposited data

Results flagged for a closer look

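The tested difference between the quiescent and the non-quiescent slope passed for 6 members, all with the lower quiescent slope. They were 24.0% of the members, where 17.6% of all strains were called lower and 15.3% higher. No member was called without day 24, without day 34 or without day 44, and 1 was without day 2. Per doubling of day + 1, the quiescent slope was lower by a log2 difference of -0.45 for H3K36A, -0.30 for H3K37A, -0.27 for H3P30V, -0.18 for H3G34A, -0.15 for H3S31A and -0.14 for H3P30A. At day 44 the quiescent and non-quiescent ratios to day 0 were -2.37 and -0.94 for H3K36A, -1.76 and -0.84 for H3K37A, -0.84 and 0.09 for H3P30V, -0.65 and 0.23 for H3G34A, -0.31 and 0.47 for H3S31A, and -0.41 and 0.27 for H3P30A. For the last 4 the signs differed between the fractions, but the non-quiescent counting intervals of H3P30V (-0.27 to 0.46) and H3G34A (-0.02 to 0.48) span 0. The barcodes of H3P30V disagreed there (up -0.55, down 0.63), as did those of H3S31A in the quiescent fraction (up -0.58, down 0.31), and for H3P30A the quiescent down barcode was at -0.01 beside -0.58 for the up barcode. Each fraction and day had 1 library, so that no sample could be set against others of its group.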

How the results depend on the processing

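No called member value changed direction under any alternative. Of 504 alternative values of the 34 called results of single members and pairs, 344 stayed past the threshold and 160 did not. The shares of all strains past a threshold were counted only for the main settings, not for the alternatives. For the step to days 1 to 3 (14 members called), the up barcode alone gave 9, the quiescent libraries alone 0 and the non-quiescent libraries alone 8, and leaving out a day gave 7 to 11; without day 0 it gives no value. For the quiescent whole course (7 called), the wild type as the reference gave 11 and leaving out a day gave 2 to 7. For the quiescent stationary slope (4 called), library totals gave 8 and the wild type 7, all falling, and leaving out a day gave 0 to 7. These scalings moved the median slope of all strains from 0.01 to -0.10 and -0.09 log2 per 10 days, and the wild type moved the median early step from 0.03 to -0.26. In the non-quiescent whole course (0 called), leaving out a day gave 0 to 3, and for the fraction term (0 called) DESeq2 gave 2, the exchanged day 5 gave 4 and leaving out a day gave 0 to 2. For the interaction (6 called), library totals gave 10, the down barcode alone 2 and leaving out a day 0 to 7. Members past 2-fold at day 44 numbered 3, but 9 against the wild type and 6 with the down barcode alone. Pairs past the threshold numbered 3, and 0 to 4 without a day. The fractions of a day were paired through day as a block in the fraction term and the interaction, and without that block the fraction term called 0 members too. Depth limits H3R40A most, with 8 to 75 counts a library.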
